A study of Homo sapiens with 9 samples.

Results

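S100 proteins are small calcium sensors, and 10 genes of the family are described here in HCCC-9810, a human cholangiocarcinoma cell line. They are S100A1, S100A2, S100A4, S100A6, S100A10, S100A11, S100A13, S100A14, S100A16 and S100P, read from every probe set that the array annotation gives to 1 of them alone. That made 14 probe sets of 49395, and 10 genes of the 18132 with a probe set of their own. RNA was measured on Affymetrix arrays after transfection with siRNAs to BAP1 (si-BAP1), siRNAs to MBD5 (si-MBD5) or a control RNA (si-Control), with 3 arrays in each group. The labels call the control si-Control in some fields and a control shRNA in others, and which was used is not settled. All 9 arrays come from 1 cell line, labelled as biological replicates, so p-values measure only the spread between samples of that line. The 10 genes were chosen by name with the measured intensities of these arrays, and their differences between the groups, already known. Their levels and their differences between groups are therefore given as a description, with no p-value printed. Where those past an adjusted p threshold are counted below, the share over all genes stands beside, and nothing is read from the counts.

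An S100 protein carries a pair of EF-hands, the helix-loop-helix fold that holds a calcium ion, and works as a dimer without enzyme activity of its own. When calcium binds, the dimer opens a cleft that grips a partner, often an annexin, a cytoskeletal protein or, outside the cell, a receptor such as RAGE. S100A10 is the exception, since it has lost calcium binding and is held in the open form. Most S100 genes lie side by side in a cluster on chromosome 1, while S100P lies on chromosome 4. Several family members are raised in carcinomas of the bile duct, pancreas and other glands, and S100P is used as a tissue marker of such tumours.

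The sequences before the start sites of 4 of these genes are shown first, because S100A16 and S100A11 were lower in both knockdowns and S100A4 and S100P hardly differed. Each is the 250 bases before an annotated start, from RefSeq on GRCh38.p14, where all 10 genes matched (14 starts, since S100A2, S100A13 and S100A16 have several). S100A16 has starts at chr1:153609356-153609605 and chr1:153613138-153613387, S100A11 at chr1:152037005-152037254 and S100A4 at chr1:153545807-153546056, all on the minus strand. That of S100P is chr4:6693628-6693877 on the plus strand. Capitals mark a GC box (GGGCGG) or a TATA box (TATAAA), searched on both strands.
S100A16 start 1: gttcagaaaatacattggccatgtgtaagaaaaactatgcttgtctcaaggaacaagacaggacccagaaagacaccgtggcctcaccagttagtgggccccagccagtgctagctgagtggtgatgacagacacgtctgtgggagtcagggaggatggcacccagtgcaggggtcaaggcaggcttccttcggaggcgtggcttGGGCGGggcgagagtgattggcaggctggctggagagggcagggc
S100A16 start 2: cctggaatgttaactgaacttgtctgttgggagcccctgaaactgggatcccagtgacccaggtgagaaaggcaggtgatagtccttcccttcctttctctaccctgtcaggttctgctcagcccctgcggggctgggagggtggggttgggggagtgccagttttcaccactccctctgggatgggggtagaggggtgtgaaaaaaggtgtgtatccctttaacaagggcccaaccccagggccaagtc
S100A11: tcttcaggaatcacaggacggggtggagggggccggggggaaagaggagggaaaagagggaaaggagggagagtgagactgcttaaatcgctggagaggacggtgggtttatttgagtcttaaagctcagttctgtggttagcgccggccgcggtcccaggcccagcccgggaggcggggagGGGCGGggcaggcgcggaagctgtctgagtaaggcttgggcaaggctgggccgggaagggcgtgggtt
S100A4: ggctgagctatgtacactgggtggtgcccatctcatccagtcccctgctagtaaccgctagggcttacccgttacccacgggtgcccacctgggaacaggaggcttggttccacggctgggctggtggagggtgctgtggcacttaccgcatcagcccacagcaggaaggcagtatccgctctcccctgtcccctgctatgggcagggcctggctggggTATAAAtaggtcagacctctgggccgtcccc
S100P: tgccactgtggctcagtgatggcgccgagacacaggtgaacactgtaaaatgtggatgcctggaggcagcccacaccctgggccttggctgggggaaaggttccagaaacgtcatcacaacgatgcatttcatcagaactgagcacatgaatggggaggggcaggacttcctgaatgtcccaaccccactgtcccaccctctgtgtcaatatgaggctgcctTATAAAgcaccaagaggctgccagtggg
The TATA box stood 31 bases before the start of S100A4 and 28 before that of S100P, and the GC box 45 before the first S100A16 start and 68 before that of S100A11. The second S100A16 start had neither. Of the 14 starts, 5 had a GC box (1 each of S100A6, S100A10, S100A11, S100A13 and S100A16) and 3 a TATA box (S100A4, S100A13 and S100P). S100A6, which differed little between the groups, had GC boxes 90, 79 and 75 bases before its start. S100A13, lower in si-BAP1, had its TATA box at 29 bases. The motifs of the genes printed therefore do not stand for the others. The AP-1 motif TGANTCA was found at 1 start, of S100A2, and the E-box CACGTG at 0. The search found a GC box in 42.6% of all 35116 promoters of this length, a TATA box in 10.7%, the AP-1 motif in 6.57% and the E-box in 2228 of them. No window printed held both motifs, and a match describes letters, not a binding site.

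Facts of the series that touch these genes are few. Array medians were near-identical (36.9 to 38.2), and arrays of a group correlated at 0.998 to 0.999. MBD5, the target of 1 knockdown, stood at the 11.9th percentile of probe sets on its brighter probe set, with 6.20, 6.20 and 6.11 in si-MBD5 and 7.16, 7.06 and 6.90 in control. Its dimmer probe set overlapped, with 2.385, 2.244 and 2.385 in si-MBD5 and 1.975, 2.679 and 2.515 in control. Both lay near background, so they give no firm check of the MBD5 knockdown. BAP1 was not analysed here, so its knockdown has no check of the target. Of 7 biliary epithelial markers on the arrays, 4 lay above the filter on dim probe sets (a mean intensity of 25.5), while KRT19, EPCAM and CDH1 lay below it. KRT7 fell from 1118 ± 42 in control to 1004 ± 48 in si-BAP1 and 980 ± 44 in si-MBD5 (limma adjusted p = 0.0236 and 0.0113), while KRT8 rose in si-BAP1 from 662 ± 30 to 824 ± 20 (limma adjusted p = 2.3e-04). Above it lay 1 of 7 myeloid, 2 of 6 fibroblast, 3 of 6 hepatocyte and 3 of 4 Schwann and melanocyte markers. The summed fibroblast list read 142 to 151 in si-BAP1, 137 to 152 in si-MBD5 and 126 to 134 in control. In it PDGFRB read 53.9 ± 2.8 in control, 62.1 ± 2.2 in si-BAP1 and 66.8 ± 4.3 in si-MBD5 (limma adjusted p = 0.0406 and 0.00629). COL1A1, also above the filter, read 29.35 ± 0.26, 29.85 ± 1.5 and 29.24 ± 2.2, and DCN, below it, 16.95 ± 1.8, 24.7 ± 0.46 and 18.9 ± 0.39. The 3' to 5' ACTB ratio, a sign of RNA quality, was 10.8 to 11.4 in si-BAP1, 11.6 to 13.02 in si-MBD5 and 11.8 to 12.8 in control. That of GAPDH was 1.070 to 1.092, 1.066 to 1.074 and 1.032 to 1.084 in the same order, so both knockdowns overlapped control. The part of these markers and of the ratios in the results below was not tested.

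S100A16 stood lowest after si-MBD5, intermediate after si-BAP1 and highest in control. It is a broadly expressed family member that binds calcium weakly. Its brighter probe set read 826, 855 and 802 in the 3 control arrays, 592, 593 and 582 in si-BAP1, and 436, 443 and 466 in si-MBD5. The 3 groups did not overlap. Group means were 828 ± 26, 589 ± 6.5 and 448 ± 16 (SD, n = 3 each), so si-BAP1 kept 71.2% and si-MBD5 54.1% of the control intensity. As differences of log2(intensity + 16), si-BAP1 was 0.48 below control (-0.48, SE 0.038), si-MBD5 0.86 below (-0.86, SE 0.038) and si-BAP1 0.38 above si-MBD5 (0.38, SE 0.038). The second S100A16 probe set gave the same order. It read 522, 540 and 476 in control, 336, 341 and 323 in si-BAP1, and 237, 234 and 253 in si-MBD5. There the log2 differences were -0.60 (SE 0.049) and -1.04 (SE 0.049) against control.

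**Figure D1:**
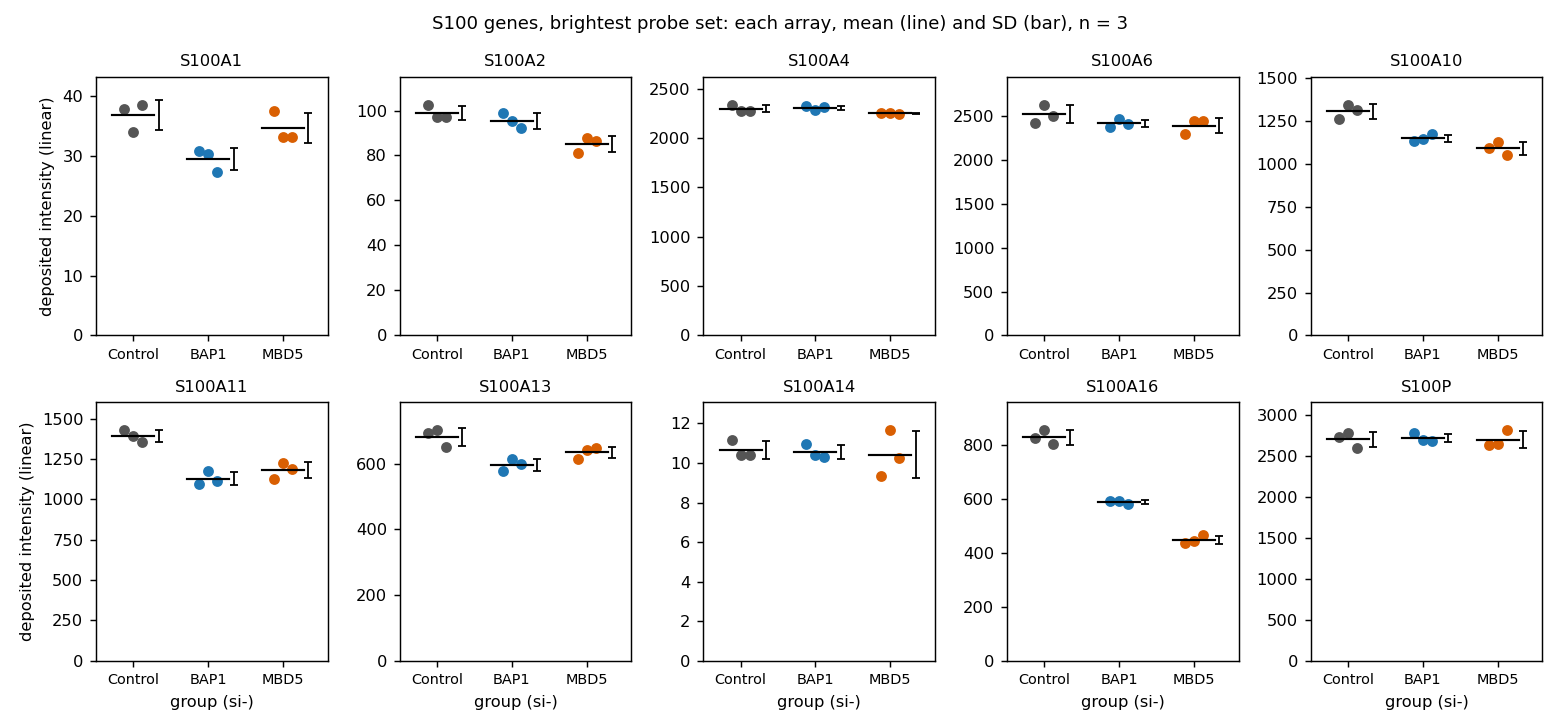
Deposited intensity (linear axis from 0) of each S100 gene's brightest probe set in the 9 arrays, with 1 point per array, the group mean as a line and the SD as a bar. The 3 groups of S100A16 do not overlap (448 to 828 on average), the knockdown arrays of S100A10, S100A11 and S100A13 lie below control, and S100P and S100A6 overlap in all groups.

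S100A11 and S100A10, both partners of annexins at membranes, were lower in each knockdown by a smaller amount. S100A11, which binds annexin A1, read 1430, 1392 and 1356 in control, 1096, 1177 and 1113 in si-BAP1, and 1126, 1226 and 1188 in si-MBD5. Both knockdowns lay wholly below control and overlapped each other. The means of 1129 ± 42 and 1180 ± 51 were 81.0% and 84.7% of the control mean of 1393 ± 37 (SD, n = 3). The log2 differences from control were -0.30 (SE 0.040) and -0.24 (SE 0.040). S100A11 was read by a single probe set of the _s_at type, whose probes can also match other transcripts, so no second probe set was at hand.

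S100A10, the annexin A2 partner that also helps to hold plasminogen at the cell surface, read 1260, 1344 and 1315 in control, 1131, 1144 and 1172 in si-BAP1, and 1094, 1127 and 1049 in si-MBD5. The 3 groups did not overlap, with si-MBD5 lowest, although the gap between the highest si-MBD5 and the lowest si-BAP1 array was only that between 1127 and 1131. Means were 1306 ± 43, 1149 ± 21 and 1090.1 ± 39 (SD, n = 3), and log2 differences from control were -0.18 (SE 0.036) for si-BAP1 and -0.26 (SE 0.036) for si-MBD5. Its second probe set, of the _x_at type, gave -0.18 and -0.27.

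S100A13, which takes part in the release of FGF1 from cells by a route outside the secretory pathway, stood lowest in si-BAP1. It read 694, 703 and 651 in control, 577, 613 and 599 in si-BAP1, and 615, 642 and 647 in si-MBD5. The groups did not overlap, but the highest si-MBD5 array lay next to the lowest control array. The log2 differences from control were -0.19 (SE 0.041) in si-BAP1 and -0.10 (SE 0.041) in si-MBD5, from means of 597 ± 18, 634 ± 17 and 683 ± 27 (SD, n = 3).

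S100A1 and S100A2 each stood apart from control in 1 knockdown, at lower signal. S100A1, best known from heart and skeletal muscle, read 37.9, 34.1 and 38.5 in control and 30.9, 30.3 and 27.4 in si-BAP1, without overlap (log2 -0.22, SE 0.057). Its si-MBD5 arrays, at 37.5, 33.2 and 33.2, overlapped control (log2 -0.060, SE 0.057). S100A2, a mainly nuclear S100 protein of epithelia, read 103, 97.2 and 97.3 in control, 98.8, 95.4 and 92.0 in si-BAP1, and 80.9, 87.7 and 86.5 in si-MBD5. Here si-MBD5 lay below both other groups (log2 -0.19 against control, SE 0.047), and si-BAP1 overlapped control (log2 -0.046, SE 0.047). Set directly against each other, si-BAP1 minus si-MBD5 was -0.155 (SE 0.057) for S100A1 and 0.14 (SE 0.047) for S100A2. No difference in response between the knockdowns is drawn from these values.

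S100A4, S100A6, S100P and S100A14 differed little or not at all between the groups. S100A4, a regulator of non-muscle myosin and cell motility, had 3 probe sets, all within log2 0.028 of control in both knockdowns. The brightest read 2338, 2275 and 2277 in control, 2325, 2287 and 2314 in si-BAP1, and 2253, 2256 and 2247 in si-MBD5. On it si-MBD5 lay wholly below control, by 1.96% of the mean, and on the other 2 probe sets the groups overlapped. One of these read exactly 1889.35 in 1 array of each group, and 5 of the 14 probe sets held such repeated values. The part of these repeats in the spread was not tested.

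S100P, a ligand of RAGE that also activates ezrin, read 2731, 2776 and 2599 in control, 2776, 2695 and 2674 in si-BAP1, and 2625, 2643 and 2812 in si-MBD5. All 3 groups overlapped, with log2 differences from control of 0.0070 (SE 0.034) and -0.0049 (SE 0.034). S100A6, or calcyclin, read 2425, 2627 and 2499 in control, 2371, 2460.5 and 2412 in si-BAP1, and 2294, 2439 and 2439 in si-MBD5, again with overlap (log2 -0.059 and -0.074, SE 0.035). S100A14, a membrane-associated member of epithelia whose gene lies next to S100A16, read 9.32 to 11.7 in all 9 arrays, below the filter, and was not tested. These readings do not show that the 4 genes are unaffected.

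**Figure D2:**
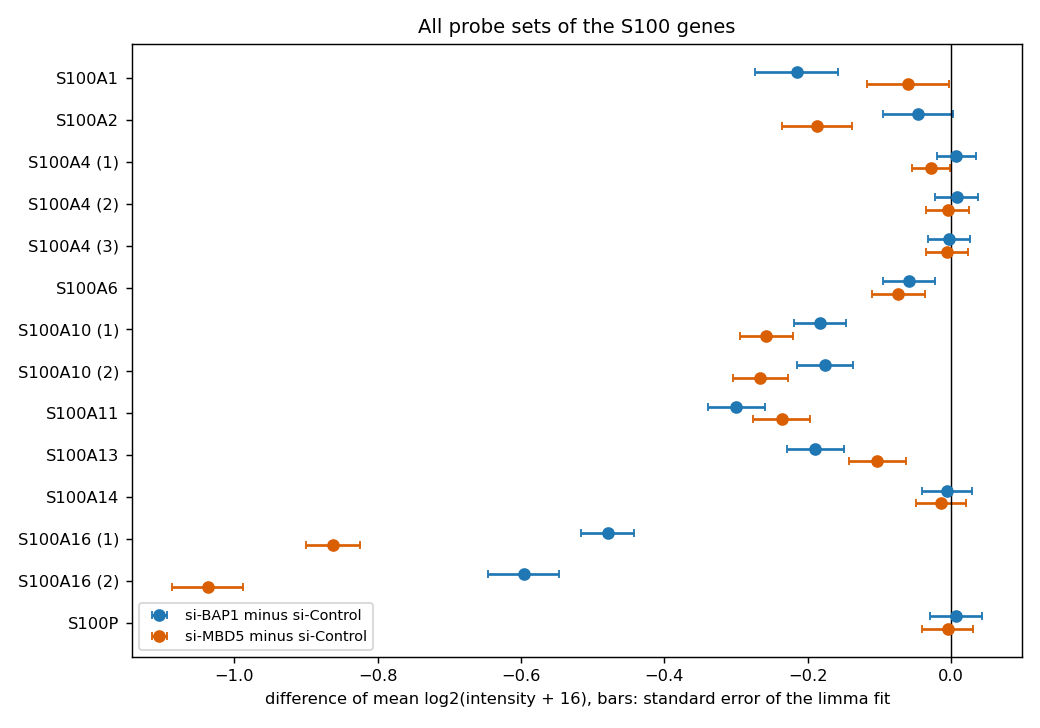
Difference of mean log2(intensity + 16) from si-Control for each of the 14 probe sets, with si-BAP1 and si-MBD5 side by side and the standard error of the limma fit as bars (numbers in brackets order a gene's probe sets from bright to dim). Both S100A16 probe sets lie farthest left (-0.48 to -1.04), and S100A4, S100A14 and S100P lie near 0.

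Counted over genes, 9 of the 10 passed the filter. In si-BAP1 against control, 5 of these 9 passed the adjusted p threshold of 0.05 in limma, all lower (S100A1, S100A10, S100A11, S100A13 and S100A16), and 4 did not pass. Over all 12434 genes tested the share was 23.5%, with 12.4% higher and 11.1% lower. Their median log2 difference was -0.18, beside 4.7e-04 over all genes. The S100A1 call ended without si-BAP1 replicate 3 or without si-Control replicate 3, where log2 was -0.18 and -0.19. In si-MBD5 against control 4 of 9 were called, all lower (S100A2, S100A10, S100A11 and S100A16), beside 16.3% of all genes, with 7.29% higher and 8.99% lower. The median was -0.10 beside 8.5e-05. The S100A2 call ended without si-Control replicate 1 or without si-MBD5 replicate 1, where log2 was -0.17 and -0.16. Between the knockdowns 1 of 9 was called, S100A16, higher in si-BAP1, beside 9.97% of all genes, with 5.76% higher and 4.21% lower. That split of 716 genes higher and 524 lower turned to 603 and 711 with quantile normalization. The larger side also turned in si-BAP1 against control, from 1536 higher and 1382 lower to 1516 and 1567 (quantile) and 1408 and 1664 (median centring). In si-MBD5 it turned from 907 and 1118 to 1108 and 1055 (quantile). Since the genes were listed with these comparisons known, nothing is read from the counts, and the knockdowns share their 3 control arrays.

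Counted over probe sets, 7 of 14 had all 3 si-BAP1 arrays below all 3 control arrays and 0 had them above, and 8 of 14 and 0 of 14 did so in si-MBD5. Over the brightest probe sets of all genes tested, si-BAP1 arrays lay wholly below control in 17.4% and wholly above in 20.0%, and si-MBD5 arrays in 16.4% and 14.0%. In either direction these shares came to 37.5% and 30.4%. On the brightest probe sets of the 9 S100 genes tested, 5 lay wholly below control in si-BAP1 and 6 in si-MBD5, with 0 above in each. Between the knockdowns, si-BAP1 lay wholly above si-MBD5 in 6 of the 14 probe sets and wholly below in 2. On the brightest probe sets of the 9 S100 genes tested these counts were 4 and 2. They stand beside 14.8% and 10.2% of all genes tested, and 25.0% in either direction. The 6 were those of S100A2, 1 of S100A4, both of S100A10 and both of S100A16, and the 2 were those of S100A1 and S100A13. As with the genes called, nothing is read from these counts, since the genes were listed with these comparisons known.

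The other S100 genes on the arrays were dim, and 0 of the 2 tested were called in limma in any comparison (0 also at an unadjusted p under 0.05). They are the rest of the family after the 10 genes were listed with these results known, so their values are not independent of that choice. All 11 (S100A3, S100A5, S100A7, S100A7A, S100A7L2, S100A8, S100A9, S100A12, S100B, S100G and S100Z) had probe sets of their own, 14 in all, and only S100A3 and S100B lay above the filter. S100A3 read 51.7 ± 2.7 in control, 51.0 ± 2.5 in si-BAP1 and 52.9 ± 3.2 in si-MBD5 (limma adjusted p = 0.889 and 0.798 against control). S100B, the glial S100 protein, read 24.8 ± 2.0, 26.0 ± 1.2 and 28.02 ± 4.1 on its brightest probe set (limma adjusted p = 0.717 and 0.327). S100A8, S100A9 and S100A12, the calprotectin subunits and their relative of neutrophils and monocytes, read 20.9 ± 1.2, 5.03 ± 0.26 and 17.3 ± 0.40 in control, all below the filter. Of the 14 probe sets, 1 (of S100A7A, at 10.1 ± 0.20 in control and 11.5 ± 0.94 in si-MBD5) had arrays that did not overlap in a comparison with control. Tested without the filter over all probe sets, the smallest limma adjusted p among the 14 was 0.323 in si-BAP1 and 0.351 in si-MBD5.

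Proteins that S100 dimers are known to bind, and their receptors, included annexins that changed in both knockdowns. Of 20 such genes on the arrays, DLC1, SYT1 and IL1A lay below the filter, and 17 were tested. In si-BAP1 against control 5 rose and 4 fell (52.9% called, beside 23.5% of all genes), with a median log2 difference of 0.081. In si-MBD5 3 rose and 2 fell (29.4%, beside 16.3%), with a median of 0.033, and between the knockdowns 1 was higher and 1 lower in si-BAP1 (11.8%, beside 9.97%), with a median of -9.3e-04. The list was made with earlier results of these data known, so nothing is read from these shares.

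ANXA2, the annexin that S100A10 binds, fell in both knockdowns along with S100A10 as listed above. It read 5311, 5275 and 5381 in control, 4658, 4736 and 4800.4 in si-BAP1, and 4664, 4865 and 4757 in si-MBD5, so each knockdown lay wholly below control and the knockdowns overlapped. The log2 difference was -0.17 in si-BAP1 (SE 0.024, limma adjusted p = 1.6e-04) and -0.16 in si-MBD5 (SE 0.024, limma adjusted p = 5.6e-04). Of its 6 probe sets above the filter, 4 carried this fall and 2 did not. With _x_at and _s_at probe sets left out the value turned to 0.016 (adjusted p = 0.855) in si-BAP1 and lost its call in si-MBD5 (-0.0057).

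ANXA1, which S100A11 binds, went apart between the knockdowns. It read 2169, 2142 and 2211 in control, 2371, 2384 and 2417 in si-BAP1, and 1999, 2124 and 2046 in si-MBD5, with 3 groups that did not overlap. It rose in si-BAP1 (log2 0.14, SE 0.029, limma adjusted p = 0.00385), a call that ended when _x_at and _s_at probe sets were left out (log2 0.15, 0.0715 after adjustment). The fall in si-MBD5 did not pass (log2 -0.080, limma adjusted p = 0.0853), while the direct difference between the knockdowns did (log2 0.22, SE 0.029, limma adjusted p = 4.1e-04). All 4 ANXA1 probe sets above the filter stood higher in si-BAP1 than in si-MBD5, by log2 0.20 to 0.25. S100A11 was lower in both knockdowns, so its level and that of ANXA1 did not go the same way in si-BAP1.

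ANXA6, another annexin that S100 proteins bind, rose in both knockdowns, from 92.6 ± 0.54 in control to 140 ± 7.7 in si-BAP1 (log2 0.52, SE 0.051, limma adjusted p = 7.9e-06) and 148 ± 8.9 in si-MBD5 (log2 0.59, limma adjusted p = 8.7e-06). ANXA11, a partner of S100A6, fell in si-BAP1 from 1159 ± 47 to 1010.0 ± 14 (log2 -0.20, SE 0.040, limma adjusted p = 0.00267), and read 1114 ± 50 in si-MBD5 (adjusted p = 0.398). The difference between the knockdowns passed (log2 -0.14, limma adjusted p = 0.0420), but it was lost in 11 of 20 other settings (0.0574 to 0.131 after adjustment), among them without any 1 of the 3 si-BAP1 arrays, si-Control replicate 2 or si-MBD5 replicate 1 or 3. Without si-MBD5 replicate 2, the partners called between the knockdowns numbered 4. TLR4, a receptor for secreted S100 proteins, fell in si-BAP1 on 1 of 2 probe sets (136 ± 11 against 160 ± 11, log2 -0.20, limma adjusted p = 0.0310), a call lost without si-BAP1 replicate 1 or 3 or without si-Control replicate 1 or 2 (adjusted p = 0.0684 to 0.152) and on the mean of both probe sets (0.106). AGER, which encodes RAGE, read 68.7 ± 7.6 in si-BAP1, 65.9 ± 1.5 in si-MBD5 and 61.5 ± 3.5 in control and did not pass (limma adjusted p = 0.183 and 0.442).

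S100PBP, the nuclear binding protein of S100P, fell in si-MBD5 from 163 ± 5.5 to 133 ± 4.3 on its brightest probe set (log2 -0.26, SE 0.044, limma adjusted p = 0.00115). Its other 2 probe sets, read at 0.029 and 0.042, did not, and with the mean of probe sets the value was -0.064 (adjusted p = 0.310). It also fell in si-BAP1, to 147 ± 3.5 (log2 -0.13, limma adjusted p = 0.0422), a call lost in 9 of 20 settings, among them without any 1 of the 3 si-BAP1 arrays, si-Control replicate 2 or 3 or si-MBD5 replicate 1 (0.0529 to 0.150 after adjustment) and on the mean of probe sets (-0.018). STK38, a kinase that S100B activates, rose in si-MBD5 from 420 ± 6.9 to 501 ± 39 (log2 0.24, SE 0.049, limma adjusted p = 0.00422). It also rose in si-BAP1, to 470 ± 14 (log2 0.16, limma adjusted p = 0.0347), a call lost without si-BAP1 replicate 1 or 3 or without any 1 of the 3 control arrays (0.0700 to 0.135 after adjustment), and the knockdowns overlapped. MYH9, the myosin heavy chain that S100A4 binds, rose in si-BAP1 (log2 0.16, limma adjusted p = 0.00686), as did IQGAP1, a scaffold that binds S100P (log2 0.16, limma adjusted p = 0.00249). EZR, PPFIBP1 and AHNAK, other partners at the cytoskeleton or membrane, did not pass in si-BAP1 on their brightest probe sets (log2 0.090, -8.0e-04 and -0.035, limma adjusted p = 0.325, 0.995 and 0.486). The other AHNAK probe set fell there (log2 -0.32, limma adjusted p = 0.00199 over all probe sets). Of 5 EZR probe sets, 2 rose past the threshold (log2 0.17 and 0.20). IQGAP1 also rose in si-MBD5 (log2 0.14, limma adjusted p = 0.00852) on 1 of 4 probe sets. That call ended when its probe sets were averaged (log2 0.058, 0.283 after adjustment) and without those of the _x_at and _s_at types (log2 0.068, 0.367 after adjustment). CACYBP, the calcyclin-binding protein, read 1462 ± 22 in si-BAP1, 1465 ± 83 in si-MBD5 and 1352 ± 95 in control and did not pass (limma adjusted p = 0.122 and 0.143).

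**Figure D3:**
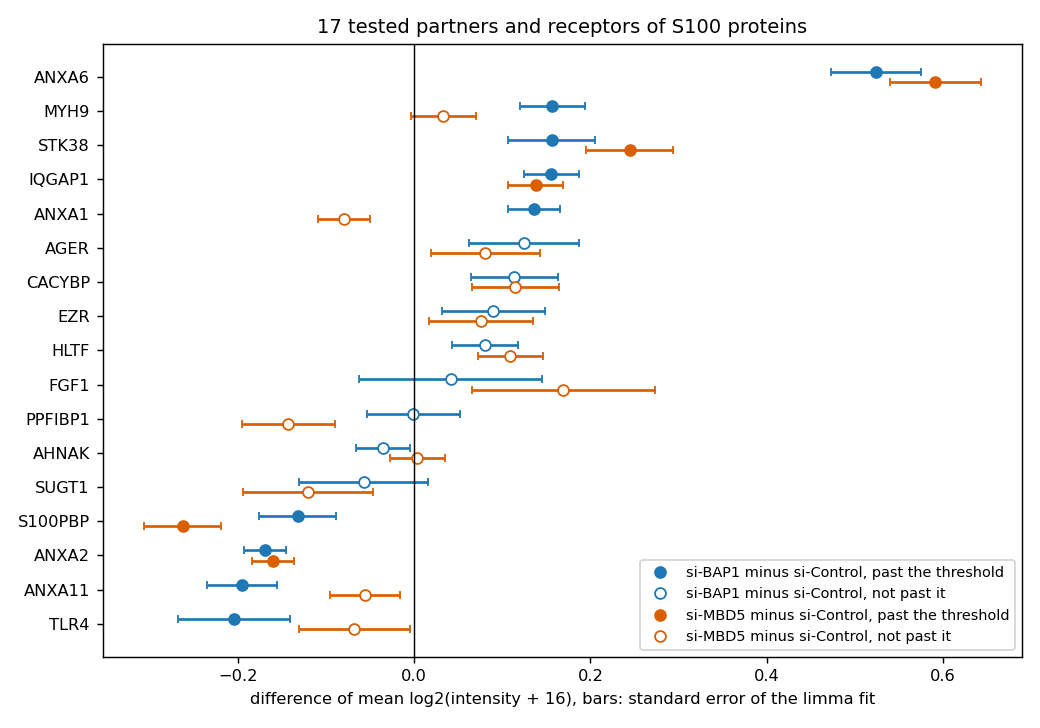
Difference of mean log2(intensity + 16) from si-Control for the 17 tested partners and receptors of S100 proteins, with the standard error of the limma fit as bars and filled points for genes past an adjusted p of 0.05. ANXA6 lies farthest right in both knockdowns (0.52 and 0.59), ANXA2 lies left of 0 in both, and ANXA1 lies on opposite sides.

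Calcium-binding EF-hand genes outside the family changed in both directions, with TESC lower and RCN3 higher in both knockdowns. Of 57 listed, 52 had probe sets here and 47 were tested. In si-BAP1 7 rose and 6 fell (27.7%, beside 23.5%), in si-MBD5 5 rose and 5 fell (21.3%, beside 16.3%), and between the knockdowns 3 were higher and 1 lower in si-BAP1 (8.51%, beside 9.97%). The medians were -0.0066, -0.024 and 0.0079 log2. This list too was made with earlier results known, so nothing is read from these shares. TESC, the calcium sensor tescalcin, fell in both knockdowns, from 353 ± 16 in control to 269 ± 8.5 (log2 -0.37, limma adjusted p = 6.3e-05) and 244 ± 10.2 (log2 -0.50, limma adjusted p = 1.4e-05). RCN3, a calcium-binding protein of the endoplasmic reticulum, rose in both, from 221 ± 7.2 to 294 ± 10.2 (log2 0.38, limma adjusted p = 1.8e-04) and 290 ± 24 (log2 0.36, limma adjusted p = 6.5e-04). EPS15, an endocytic adaptor, fell in si-BAP1 from 457 ± 29 to 323 ± 18 (log2 -0.48, limma adjusted p = 1.4e-05), on 3 of its 5 probe sets, and EFHD2, an actin-binding EF-hand protein, fell on 1 of 2 (log2 -0.30, limma adjusted p = 8.6e-04), which the mean of the 2 did not carry (log2 -0.11, 0.0717 after adjustment). EFHD2 also fell in si-MBD5 (log2 -0.18, limma adjusted p = 0.0343), a call lost in 8 of 20 settings, among them without si-BAP1 replicate 3, si-Control replicate 1 or 2 or si-MBD5 replicate 1 (0.0520 to 0.138 after adjustment). FKBP10, a collagen chaperone, rose in both knockdowns, from 1343 ± 43 to 1606 ± 95 in si-BAP1 (log2 0.25, limma adjusted p = 0.00601, past the threshold on 5 of 5 probe sets) and 1626 ± 151 in si-MBD5 (log2 0.27, limma adjusted p = 0.00669, on 4 of 5). EHD1, of the endocytic recycling pathway, fell in si-MBD5 (log2 -0.28, limma adjusted p = 0.00103) on 1 of 7 probe sets and turned to 0.039 (0.813 after adjustment) when _x_at and _s_at probe sets were left out. Without si-Control replicate 2 or without si-MBD5 replicate 1, the EF-hand genes called in si-MBD5 numbered 5. Between the knockdowns, PPP3R1, the regulatory subunit of calcineurin, was higher in si-BAP1 (305 ± 9.2 against 254 ± 7.4, log2 0.25, limma adjusted p = 0.00286). EHD1 was also higher there (log2 0.41, limma adjusted p = 7.8e-05, again on 1 of 7 probe sets), a call that ended on the mean of probe sets (log2 0.11, 0.0942 after adjustment) and without those of the _x_at and _s_at types (log2 0.14, 0.326 after adjustment). So was RCN2 (log2 0.20, limma adjusted p = 0.0379), a call lost in 11 of 20 settings, among them without si-BAP1 replicate 1 or 2, si-Control replicate 1 or 2 or si-MBD5 replicate 1 (0.0513 to 0.168 after adjustment). EPS15 was lower in si-BAP1 than in si-MBD5 (log2 -0.33, limma adjusted p = 0.00103), past the threshold on 1 of 5 probe sets, with log2 from -0.33 to -0.080 over the 5.

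Few of the tested genes around the S100 cluster on chromosome 1 were called. The 67 protein-coding neighbours are those between the outermost S100 genes in the RefSeq table (GRCh38.p14), with 10 more at each end, and they include the epidermal LCE and SPRR families. Of these 63 had probe sets here, 37 were tested and 26 lay below the filter. The part of signal level in the shares called was not tested. In si-BAP1 1 rose and 0 fell in limma (2 of the 37 at an unadjusted p under 0.05, and 2.70% called beside 23.5% of all genes), in si-MBD5 2 rose and 1 fell (8.11%, beside 16.3%), and between the knockdowns 1 was higher and 1 lower in si-BAP1 (5.41%, beside 9.97%). The medians were -0.0057, 0.0077 and -0.020 log2. INTS3, a subunit of the Integrator complex beyond the S100A1 end of the cluster, rose in si-BAP1 (256 ± 9.9 against 225 ± 8.0, log2 0.17, limma adjusted p = 0.0267) and in si-MBD5 (272 ± 18, log2 0.25, limma adjusted p = 0.00433). The si-BAP1 call for INTS3 ended without si-BAP1 replicate 2 or 3 or without si-Control replicate 1 (adjusted p = 0.0540 to 0.108). NPR1, a natriuretic peptide receptor, rose in si-MBD5 (46.1 ± 3.0 against 34.4 ± 1.7, log2 0.30, limma adjusted p = 0.00165). NPR1 was lower in si-BAP1 than in si-MBD5 (log2 -0.19, limma adjusted p = 0.0373), a call lost in 8 of 19 settings (0.0609 to 0.149 after adjustment). It was lost without any 1 of the 3 si-BAP1 arrays and without si-MBD5 replicate 1 or 2. The same held with no filter, with averaged probe sets and with only the 2 groups compared. SNAPIN, a SNARE-associated protein, fell in si-MBD5 (log2 -0.14, limma adjusted p = 0.0290), a call lost in 7 of 20 settings (0.0557 to 0.112 after adjustment). It was lost without any 1 of the 3 control arrays, without si-MBD5 replicate 1 or 2, with quantile normalization and with the replicate block. SNAPIN was higher in si-BAP1 than in si-MBD5 (log2 0.20, limma adjusted p = 0.00750).

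The genes with the profile most like that of S100A16, which had the largest difference of the family in both knockdowns, were CPA4, STMN3 and GADD45A. Likeness was the root mean square distance between log2(intensity + 16) values over the 9 arrays, each gene set to its control mean, among 12433 other genes. CPA4, a carboxypeptidase, lay at 0.082, with 170 ± 9.9 in control, 123 ± 1.2 in si-BAP1 and 96.0 ± 4.8 in si-MBD5. STMN3, a microtubule-destabilising stathmin, lay at 0.12, with 145 ± 3.2, 86.6 ± 3.4 and 68.2 ± 6.5. GADD45A, a DNA damage response gene, lay at 0.13, with 908 ± 14, 651 ± 44 and 561 ± 36. Their order of groups follows from this choice.

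**Figure D4:**
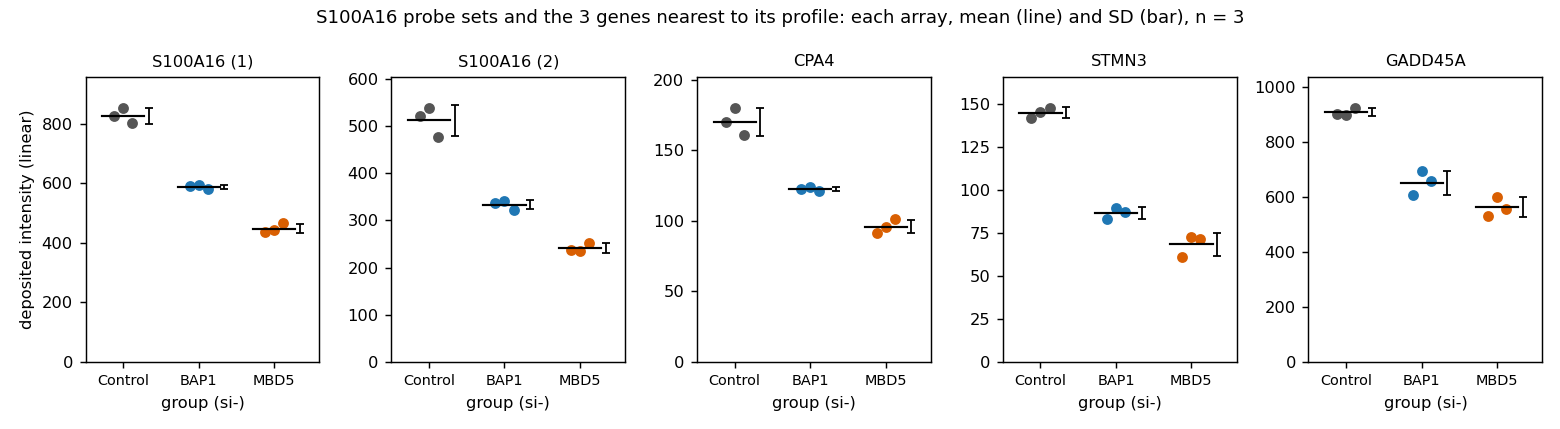
Deposited intensity (linear axis from 0) in each array of the 2 S100A16 probe sets and of CPA4, STMN3 and GADD45A, with the group mean as a line and the SD as a bar (n = 3). In each panel control is highest and si-MBD5 lowest, from 828 to 448 for the brighter S100A16 probe set.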

How the data were processed

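The authors deposited 1 intensity per probe set and array on a linear scale, made with MAS5 per the submitters' processing notes (no version is given). Per the labels, the arrays took biotin-labelled cRNA from Trizol-extracted RNA. Array medians were near-equal; no source used here gives their scaling, and none was added. Probe sets were named through the platform annotation. Of those with 1 symbol, 44961 took the RefSeq symbol of their gene identifier, whether or not it differed, and 27 kept the annotated one. For tests, 16 was added and log2 taken, which makes fold changes smaller than intensity ratios. A gene took the values of its brightest probe set, kept where that mean lay above the 40th percentile. A model of 3 group means over all 9 arrays was fitted in limma 3.58.1 (R 4.3.3) with empirical Bayes and an intensity trend. Benjamini-Hochberg adjustment ran over 12434 genes. The fit was also run on simulated data with independent noise, without scale differences between arrays or repeated values. That run does not check the calls made here. Single probe sets came from the same model over all non-control probe sets. Figures used matplotlib 3.10.9.

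The members and lists were chosen with earlier results of these data known; partner and EF-hand lists came from textbook knowledge, neighbours from position. Named were all S100 genes and, per list and comparison, up to 4 called genes with separated arrays, largest difference first. ANXA1 in si-BAP1 and in si-MBD5, ANXA11 in si-MBD5, MYH9, IQGAP1, AGER, CACYBP, EZR, PPFIBP1, AHNAK, and STK38, S100PBP, EFHD2 and FKBP10 in their other knockdown were added after their values were seen, as partners of the described members or to give both knockdowns. No pairing by replicate number was seen: same-numbered arrays of different groups had deviations correlated at -0.40 to 0.43, and other-numbered ones at -0.53 to 0.46. With 3 arrays a group, these ranges cannot exclude a pairing. The number of arrays limits the precision: an exact permutation of 3 against 3 cannot go under p = 0.1. Some items are not reported here.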

Additional observations from a re-analysis of the deposited data

How the results depend on the processing

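Of 20 alternatives (other constants, scalings, filters, probe set choices and fits, and each array left out), those that moved a count of calls by over 1.5 times are these. Between the knockdowns, the mean of probe sets called 2 S100 genes in place of 1, adding S100A2. Partner genes called there fell from 2 to 1 with no filter, the replicate block, no intensity trend or only the 2 groups compared, and from 5 to 3 in si-MBD5 against control without _x_at and _s_at probe sets. Without those probe sets, EF-hand genes between the knockdowns fell from 4 to 2. Neighbours there fell from 2 to 1 with only the 2 groups compared, with averaged probe sets and with the filter dropped or set at the 60th percentile. ANXA2 in si-BAP1 (0.016) and EHD1 in si-MBD5 (0.039) turned sign without _x_at and _s_at probe sets, and PDCD6 in si-BAP1 (-0.014) on the mean of probe sets. The cause was not tested. With each array left out in turn, genes called ranged from 2245 to 3175 (si-BAP1), 1266 to 1972 (si-MBD5, lowest without si-Control replicate 2) and 721 to 1328 (between the knockdowns, lowest without si-MBD5 replicate 1). S100 genes called ranged from 4 to 5, 3 to 4 and 1 to 1, partners from 6 to 9, 5 to 7 and 1 to 4, EF-hand genes from 11 to 15, 5 to 11 and 3 to 5, and neighbours from 0 to 1, 2 to 4 and 1 to 2. With replicate number as a block, 2851, 1866 and 1115 genes were called, and whether the numbers pair the arrays is not settled. S100A16 stayed between -0.54 and -0.45 in si-BAP1 and between -0.95 and -0.80 in si-MBD5 over all settings. S100A11 has no value without _x_at and _s_at probe sets. Signal near background limits S100A1, S100A14 and MBD5.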
